A study of Homo sapiens with 18 samples.

Results

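The 33 genes described here encode the transcription factor NRF2, its partners and inhibitor, and the proteins of antioxidant defence that it is known to control or that act beside them. They were chosen by name: 5 regulators, 8 genes of glutathione, 9 of thioredoxin and the peroxiredoxins, 4 of NADPH supply, 4 of quinone, haem and iron handling, and 3 that remove superoxide and hydrogen peroxide. All 33 were found among the 60707 genes of the deposited count table, and 30 of them were among the 16474 genes that passed a filter on low counts and were tested. Reads per gene were counted in 18 RNA sequencing libraries of Raji, an established human B cell line from a Burkitt lymphoma. The cells carry a degron, a tag by which auxin sends a protein to breakdown, on SMARCA4 (BRG1), the ATPase motor of the BAF chromatin remodelling complexes. The 6 groups are GFP low cells at 24, 48 and 72 h and GFP high cells at 24, 48 and 72 h, with 3 libraries in each. All 18 libraries have the genotype label Smarca4+/+ and the same cell line. The column names of 6 libraries join GFP to BRG1, but no label says what the GFP signal stands for, how cells were sorted into fractions, how auxin was given, from which event the hours count or whether the line is 1 clone.

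NRF2, the product of NFE2L2, is held by KEAP1 in a ubiquitin ligase complex and broken down in unstressed cells. Oxidants and electrophiles modify KEAP1, NRF2 then enters the nucleus, pairs with a small MAF protein such as MAFG and binds antioxidant response elements, sites for which BACH1 competes as a repressor. Its targets make glutathione, keep thioredoxin and glutathione reduced with NADPH, detoxify quinones and store iron, and growing lymphocytes draw on these systems. NRF2 is controlled mainly through its protein, which RNA counts do not measure.

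The core of the antioxidant response element is TGACNNNGC, where N is any base. It was searched on both strands of the RefSeq promoters of GRCh38.p14, each 250 bases before to 50 bases after a gene start. The table held 38 promoters of 25 of the 33 genes. The core was in 7 of these 38 promoters (18.4%), which belong to 6 genes, and in 13.3% of all 35116 promoters. The 8 windows of 30 bases shown hold matches to the core, the letters that NRF2 is known to read; 2 further matches, 1 in ME1 and 1 in TXNRD1, are not shown. Each is written 5′ to 3′ on the strand of its gene, with the core in capitals, and a core on the opposite strand is therefore seen in its reverse complement.
PGD, chr1:10398853-10398882, plus strand: cctcgccgggGCAATGTCAtctaggtgctc
GCLM, chr1:93909445-93909474, minus strand: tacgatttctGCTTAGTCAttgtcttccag
ME1, chr6:83431169-83431198, minus strand: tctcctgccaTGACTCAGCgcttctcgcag
GSTP1, chr11:67583736-67583765, plus strand: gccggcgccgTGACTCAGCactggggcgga
TXNRD1, chr12:104215670-104215699, plus strand: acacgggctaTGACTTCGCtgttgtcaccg
TXNRD1, chr12:104286920-104286949, plus strand: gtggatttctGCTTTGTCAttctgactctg
KEAP1, chr19:10502806-10502835, minus strand: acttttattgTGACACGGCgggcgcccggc
KEAP1, chr19:10502783-10502812, minus strand: gcccggctctGCTTAGTCAtggtgacctgc
The windows of ME1 and GSTP1 also hold TGACTCA, the AP-1 core, within the same letters. That core was in 3 of the 38 promoters (7.89%), which include 1 of BACH1, and in 4.95% of all promoters. A match is a description of letters and not a measured binding site. Sequence outside these promoters was not searched, so a gene without a match is not shown to lack the element. Of the 6 genes with the core, PGD, GCLM and TXNRD1 fell in GFP low cells at 24 h, KEAP1 did not pass the test at any time, and ME1 and GSTP1 were too low to test. At 24 h 28.5% of all tested genes were lower, as were most of the 30 tested genes described here. These falls therefore do not set the genes with the core apart from the rest.

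Libraries held 27257876 to 55419458 counts in genes. B cell markers summed to 3236 to 4266 CPM (counts scaled to the library's depth) per library, and all 8 of them passed the filter. Of the lists of other cell types, 7 T cell markers summed to 22.8 to 25.8 CPM in GFP low and 44.0 to 46.8 CPM in GFP high libraries at 24 h, and 8 myeloid markers to 2.16 to 2.48 CPM in GFP low and 0.762 to 1.03 CPM in GFP high libraries. Over all libraries the highest sums were 53.6 CPM for the T cell list, 2.48 CPM for the myeloid list (S100A8 and FCGR3A at 0), 14.7 CPM for 9 erythroid markers (HBA1 and GATA1 at 0) and 9.67 CPM for 8 epithelial, kidney or fibroblast markers (COL3A1 at 0). The part of these markers in the results was not tested. SMARCA4 mRNA averaged 589.6 ± 21.4 CPM in GFP low and 418 ± 9.39 CPM in GFP high libraries at 24 h (SD, n = 3 each), and its log2 fold change was 0.50, 0.11 and 0.20 at the 3 times; the 24 h value was 0.24 with the trend on gene length removed and 0.11 with the length and GC trends removed. The degron acts on the protein, so the mRNA does not check the labels.

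The level of each gene was set as CPM per 1000 bases of its summed exons, averaged over 18 libraries. The iron stores of the cell led: ferritin heavy chain FTH1 stood at 1153 and light chain FTL at 732 on this scale. The peroxidase PRDX1 followed at 452, then the NADPH-producing PGD at 231 and thioredoxin TXN at 225. The regulators were lower, with SQSTM1 at 28.6, KEAP1 at 25.4, NFE2L2 at 14.1, BACH1 at 9.61 and MAFG at 6.16. FTH1 has 25 and FTL 16 processed copies listed in the table under pseudogene names, and TXN has 7, so part of their reads may have been split. SRXN1 stood at 0.809; 90.7% of its exon bases are shared with another entry on the same strand that was listed with 0 counts, and how reads on both entries were counted is not stated in the labels.

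**Figure D1:**
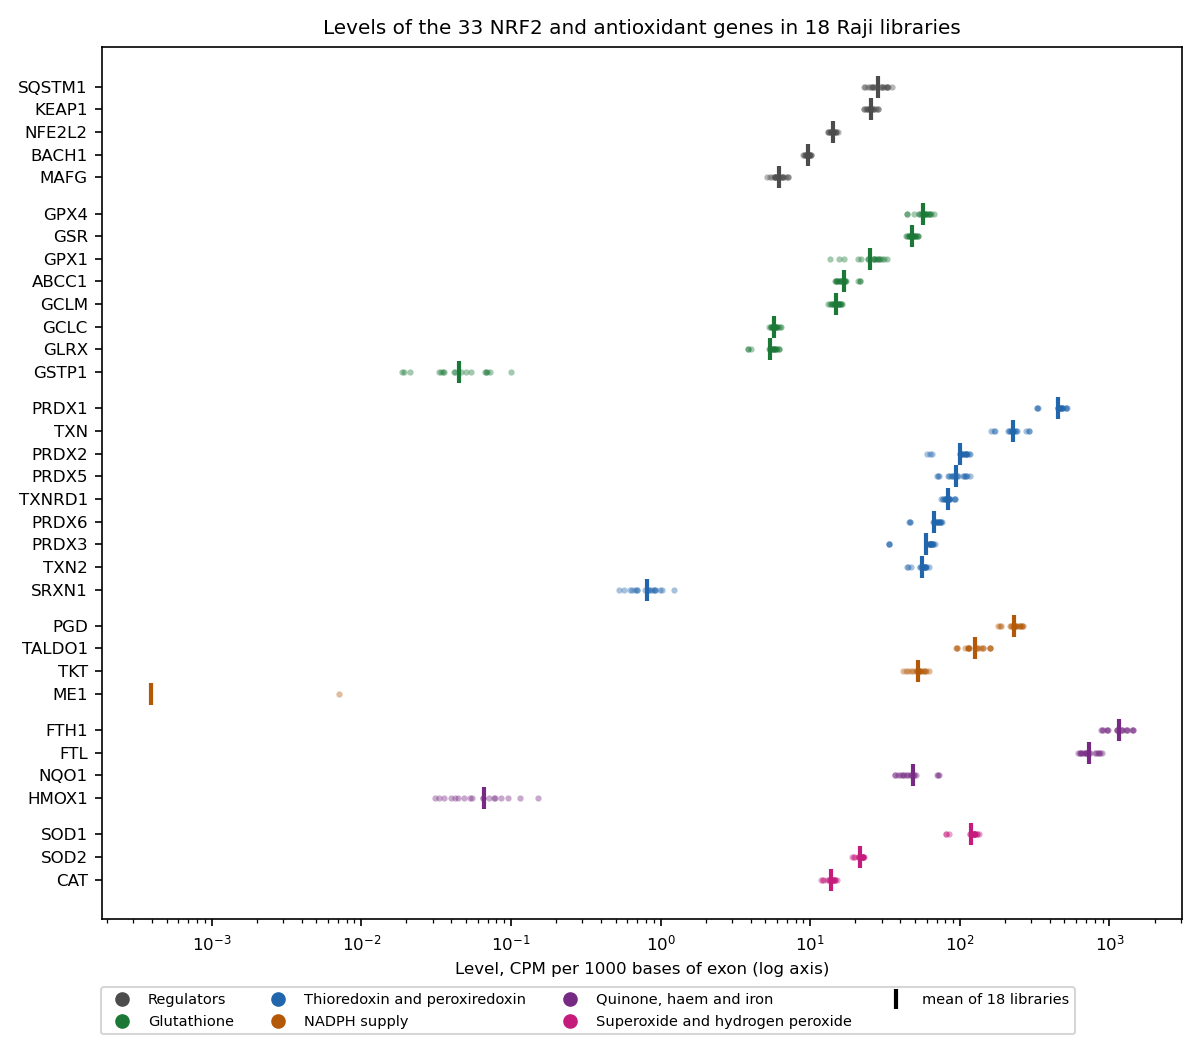
Levels of the 33 genes in 18 libraries, as CPM per 1000 bases of exon on a log axis, grouped and coloured by role. Each point is 1 library, the upright bar is the mean of 18 libraries, and libraries at 0 are not drawn (17 for ME1, 1 for GSTP1); FTH1 with a mean of 1153 and FTL with 732 lie furthest right, and the means of ME1, GSTP1 and HMOX1 furthest left.

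The 3 genes that did not pass the filter are HMOX1, GSTP1 and ME1. HMOX1, the inducible haem oxygenase and a well-known NRF2 target, had 100 counts over all 18 libraries. It had 0.180, 0.197 and 0.164 CPM in GFP low and 0.102, 0.264 and 0.112 CPM in GFP high libraries at 24 h. It had 0.219, 0.0818 and 0.0763 CPM in GFP low libraries, against 0.177, 0.351 and 0.126 CPM in GFP high libraries at 48 h, and 0.123, 0.149 and 0.0714 CPM in GFP low libraries, against 0.0916, 0.151 and 0.0977 CPM in GFP high libraries at 72 h. The groups overlapped each time, and no library exceeded 0.351 CPM. GSTP1, which joins glutathione to electrophiles, had 53 counts over the 18 libraries. ME1, the cytosolic malic enzyme, had 1 count over the 18 libraries, in a GFP low library at 72 h (0.0238 CPM in that library). This total is under a floor of 3 counts over all libraries, which would be 0.00437 CPM. No difference in these 3 genes was detectable at this depth.

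At 24 h, most of the antioxidant genes were lower in GFP low cells. Of the 30 tested genes, 26 passed the test (edgeR quasi-likelihood test, adjusted p under 0.05), against 57.9% of all tested genes. Lower in GFP low were 22 (28.5% of all tested genes), and higher were 4 (29.3%): the regulators NFE2L2, MAFG and SQSTM1 and the exporter ABCC1. The median log2 fold change of the 30 genes was -0.32, beside 0.031 over all tested genes. The groups did not overlap for these 26 genes, and 18 of the 26 calls held under every alternative that was run. How often either holds over all tested genes was not counted, so neither can be called particular to this set. Scaling by library totals alone moved the median of all tested genes from 0.031 to 0.16, and then 20 of the 30 genes were lower and 7 higher; with upper quartile scaling 21 were lower and 6 higher. Less RNA of a gene per cell and fewer cells that express it cannot be told apart in these bulk libraries.

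**Figure D2:**
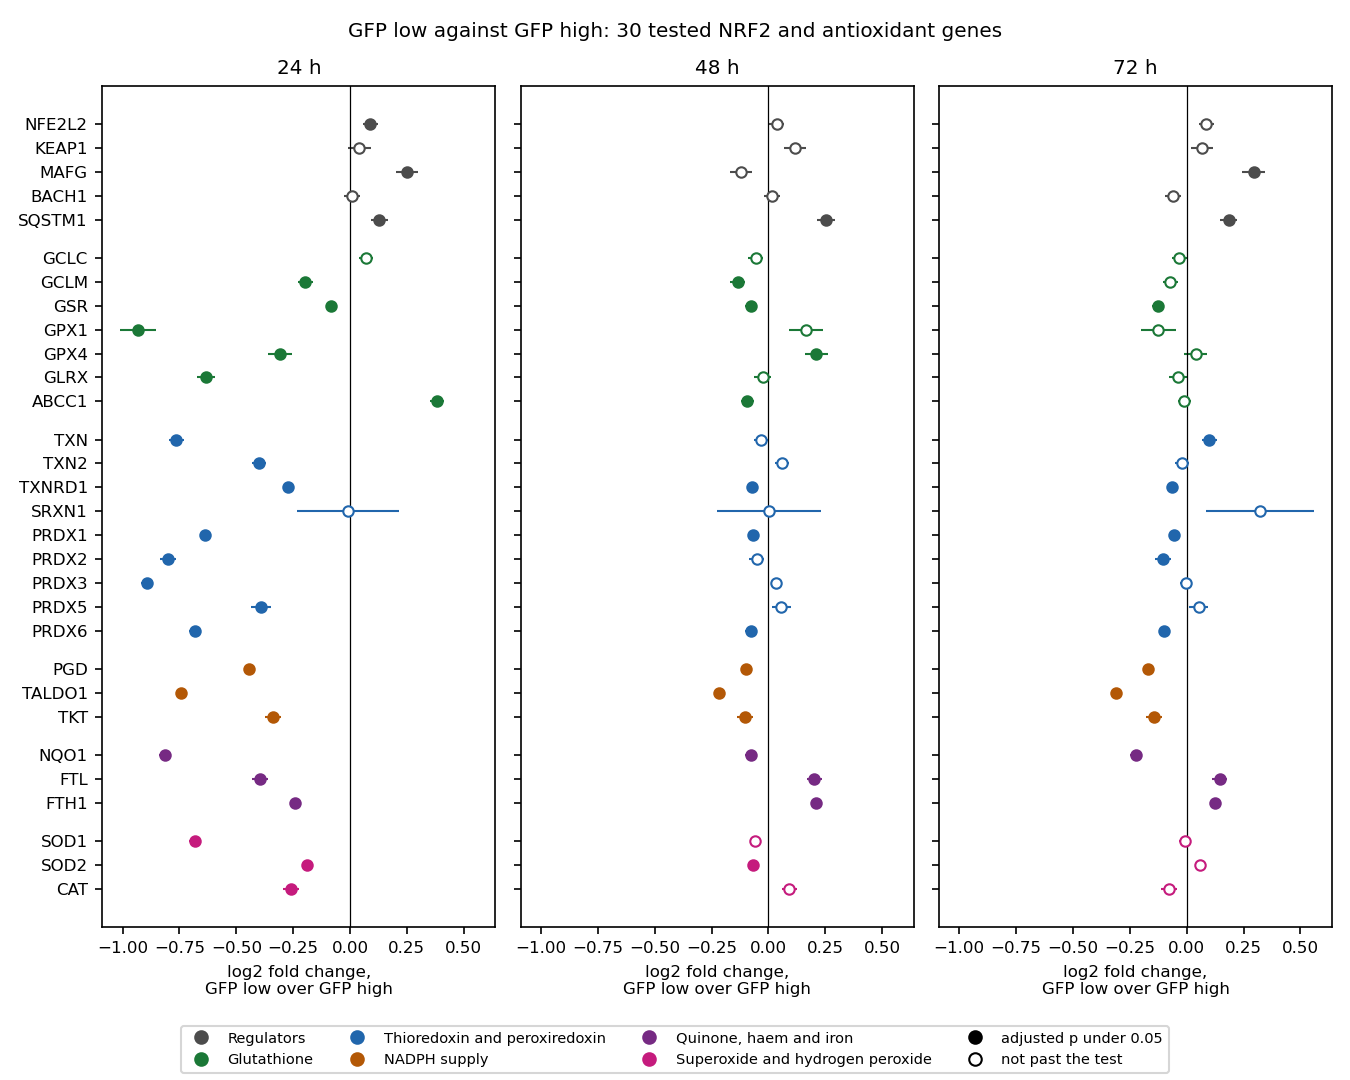
Log2 fold change of GFP low over GFP high at 24, 48 and 72 h for the 30 tested genes (points, with SE as bars), from 3 libraries in each group. Filled points passed the test and open ones did not; at 24 h the points reach -0.93 (GPX1), while at 48 and 72 h all lie between -0.31 (TALDO1 at 72 h) and 0.32 (SRXN1 at 72 h, open).

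At 48 h the difference was smaller and ran both ways. The test called 15 of the 30 genes (23.8% of all tested genes), 11 lower (13.2%) and 4 higher (10.6%), and the median log2 fold change was -0.042, beside -0.0093 over all tested genes. Only 7 of these 15 calls held under every alternative: PGD, TALDO1 and GCLM among the lower, and SQSTM1, GPX4, FTL and FTH1 among the higher. The split depended on the scaling, with 3 lower and 7 higher by library totals alone, 5 lower and 6 higher by upper quartile, 8 lower and 5 higher by relative log expression, and 4 lower and 6 higher with no filter. The count table's columns carry no number or a 1 or 2, and libraries that share this mark form 3 sets. With the library set as a block, which pairs libraries of a set, 14 of the 30 genes were lower and 7 higher. That fit called 5780 of all 16474 tested genes at 48 h, against 3926 without the block. Without the GFP low library of set 1 only 5 of the 30 were lower, and without the GFP high library of set 1 only 6 were. Without the unnumbered GFP high library or the GFP low library of set 2, 7 were lower.

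At 72 h the test called 14 of the 30 genes (26.4% of all tested genes), 9 lower (13.5%) and 5 higher (12.9%). The median log2 fold change was -0.026, beside 0.0019 over all tested genes. The calls of MAFG, SQSTM1, GSR, TXNRD1, PGD, TALDO1, TKT, NQO1 and FTH1 held under every alternative. With the library set as a block, 12 of the 30 were lower and 8 higher. That fit called 6043 of all 16474 tested genes at 72 h, against 4345 without the block. Over the 3 times, 8 of the 30 genes were called lower each time (GSR, TXNRD1, PRDX1, PRDX6, PGD, TALDO1, TKT and NQO1), SQSTM1 was called higher each time, and KEAP1, BACH1, GCLC and SRXN1 were never called. Of the genes called each time, only PGD and TALDO1 kept all 3 calls under every alternative. How many of all tested genes show these patterns was not counted.

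NFE2L2, which encodes NRF2 itself (ENSG00000116044.16, chr2:177227595-177392697, minus strand), differed little between the fractions. At 24 h it had 79.5, 82.6 and 77.0 CPM in GFP low libraries, against 75.8, 74.1 and 74.8 CPM in GFP high libraries. It had 84.9, 80.6 and 78.8 CPM in GFP low libraries, against 78.0, 79.1 and 80.8 CPM in GFP high libraries at 48 h. The values at 72 h were 82.5, 87.4 and 84.3 CPM in GFP low libraries, against 80.6, 77.7 and 80.9 CPM in GFP high libraries. At 24 h the GFP low libraries all lay above the GFP high ones, by a log2 fold change of 0.089 ± 0.033 (SE, adjusted p = 0.0272). That call did not hold without the GFP high library of set 1, the GFP high library of set 2, the GFP low library of the unnumbered set or the GFP low library of set 1, with adjusted p of 0.0108 to 0.141 over the 6 libraries left out in turn. It was also lost under 5 of 11 other settings, such as the fit with the trend on gene length removed, where the log2 fold change was 0.032 (adjusted p = 0.438). The 24 h call held with the length and GC trends removed, at 0.10 (adjusted p = 0.00496). At 48 h the groups overlapped and the log2 fold change was 0.036 (adjusted p = 0.491). At 72 h they did not overlap, and 0.086 missed the threshold (adjusted p = 0.0611) but passed it in a fit with the library set as a term, the block fit (adjusted p = 0.0249). The 72 h difference in NFE2L2 also passed with the length and GC trends removed, at 0.12 (adjusted p = 0.00501). In its exons, 18.6% of bases are shared with another entry on the same strand, which held 551 counts beside 54728 of NFE2L2.

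KEAP1, the adaptor that delivers NRF2 to its ubiquitin ligase (ENSG00000079999.14, chr19:10486125-10503558, minus strand), was not called at any time. It had 94.4, 91.5 and 102 CPM in GFP low libraries, against 90.8, 90.3 and 98.3 CPM in GFP high libraries at 24 h. At 48 h the values were 94.1, 90.9 and 101 CPM in GFP low libraries, against 86.9, 86.6 and 90.1 CPM in GFP high libraries. At 72 h there were 85.5, 84.9 and 94.8 CPM in GFP low libraries, against 82.1, 81.8 and 89.2 CPM in GFP high libraries. The groups overlapped at 24 and 72 h and not at 48 h, where the log2 fold change was 0.12 (adjusted p = 0.0975, and 6.66e-05 in the block fit). At 72 h it was 0.067 (adjusted p = 0.364, and 0.0229 in that fit). BACH1, the repressor that shares NRF2 sites, had 75.4, 76.3 and 74.1 CPM in GFP low libraries, against 77.7, 75.4 and 71.7 CPM in GFP high libraries at 24 h. It had 74.9, 77.8 and 72.2 CPM in GFP low libraries, against 73.6, 74.8 and 73.7 CPM in GFP high libraries at 48 h, and 71.4, 69.4 and 68.9 CPM in GFP low libraries, against 75.0, 73.4 and 70.7 CPM in GFP high libraries at 72 h. Its groups overlapped each time, with log2 fold changes of 0.0082, 0.016 and -0.061.

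MAFG, the small MAF partner of NRF2 (ENSG00000197063.11, chr17:81918270-81927735, minus strand), rose in GFP low cells at 24 and 72 h and not at 48 h. At 24 h it had 34.2, 34.4 and 36.1 CPM in GFP low libraries, against 27.1, 30.3 and 30.5 CPM in GFP high libraries, a log2 fold change of 0.25 ± 0.048 (SE, adjusted p = 1.35e-04). At 72 h it had 37.1, 34.0 and 37.1 CPM in GFP low libraries, against 28.4, 29.1 and 30.6 CPM in GFP high libraries, or 0.29 ± 0.049 (adjusted p = 9.15e-05). With the length and GC trends removed the 24 h value was 0.14. Between them, at 48 h, stood 30.3, 30.4 and 31.5 CPM in GFP low libraries, against 32.0, 33.1 and 34.7 CPM in GFP high libraries. There every GFP low library lay below every GFP high one, at -0.12 (adjusted p = 0.0810, and 0.00711 in the block fit). The difference changed between the times, by -0.37 for 48 minus 24 h (adjusted p = 1.25e-04) and by 0.41 for 72 minus 48 h (adjusted p = 4.34e-04).

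SQSTM1, or p62, an autophagy receptor that also binds KEAP1 (ENSG00000161011.20, chr5:179806398-179838078, plus strand), rose in GFP low cells at 24, 48 and 72 h alike. It had 246, 248 and 267 CPM in GFP low libraries, against 223, 230.3 and 242 CPM in GFP high libraries at 24 h. The 48 h libraries had 225, 229 and 244 CPM in GFP low libraries, against 194, 190.5 and 201 CPM in GFP high libraries. At 72 h the values were 199, 196 and 207 CPM in GFP low libraries, against 175, 172 and 184 CPM in GFP high libraries. The groups did not overlap at any time, and in both fractions the 72 h values were the lowest. The log2 fold changes were 0.13, 0.25 and 0.18 (SE up to 0.038, adjusted p = 0.00533, 2.84e-05 and 9.31e-04). At 24 h the call did not hold without the GFP low library of set 2, with adjusted p of 0.00153 to 0.0543 over the 6 libraries left out in turn. With the length and GC trends removed the 72 h value was 0.11. Its 24 h difference was 0.0022 with the length trend removed, and turned to -0.097 with the length and GC trends removed (adjusted p = 2.52e-05). Exons of MRNIP on the opposite strand cover 21.0% of its exon bases, and whether counting used strand is not given in the sources used here.

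Of the 7 tested glutathione genes, 5 fell at 24 h (28.5% of all tested genes), ABCC1 rose (29.3%) and GCLC did not pass the test. The first step of glutathione synthesis is run by glutamate-cysteine ligase, and its subunits differed. The catalytic subunit GCLC had 54.7, 54.3 and 51.9 CPM in GFP low libraries, against 52.2, 50.4 and 50.6 CPM in GFP high libraries at 24 h. It had 47.4, 46.9 and 45.7 CPM in GFP low libraries, against 48.6, 48.3 and 48.5 CPM in GFP high libraries at 48 h and 48.5, 50.5 and 47.3 CPM in GFP low libraries, against 50.6, 49.998 and 49.0 CPM in GFP high libraries at 72 h. It was never called, with log2 fold changes of 0.070, -0.056 and -0.033; at 24 h the adjusted p was 0.0641, and 0.0245 with the library set as a block. With the length trend removed its 24 h value turned to -0.086 (adjusted p = 0.0207), and with the GC trend removed too it was -0.032 (adjusted p = 0.268). The modifier subunit GCLM (ENSG00000023909.10, chr1:93885199-93909456, minus strand), whose promoter holds the response element core shown above, had 77.8, 77.8 and 74.4 CPM in GFP low libraries, against 88.6, 87.6 and 87.2 CPM in GFP high libraries at 24 h. At 48 h it had 74.1, 76.1 and 71.3 CPM in GFP low libraries, against 80.8, 82.8 and 79.6 CPM in GFP high libraries, and at 72 h 80.2, 84.1 and 77.2 CPM in GFP low libraries, against 84.2, 84.3 and 84.8 CPM in GFP high libraries. GCLM fell by 12.8% at 24 h (log2 fold change -0.20 ± 0.032, adjusted p = 1.66e-05), a call that did not hold when libraries were scaled by their totals alone. It was also lower at 48 h (-0.14, adjusted p = 0.00339), and at 72 h it was at -0.072 (adjusted p = 0.109, and 0.0143 in the block fit).

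The peroxidase GPX1, which uses glutathione to reduce hydrogen peroxide, gave the largest fall of the 30 genes at 24 h as fitted; with the length trend removed PRDX3, GLRX, NQO1 and TALDO1 fell further, and with the length and GC trends removed PRDX3 did. It had 18.2, 16.0 and 19.8 CPM in GFP low libraries, against 32.95, 33.7 and 36.7 CPM in GFP high libraries, a fall of 47.6% (log2 fold change -0.93 ± 0.080, adjusted p = 1.24e-09). The 48 h values were 34.3, 35.3 and 38.5 CPM in GFP low libraries, against 31.6, 31.6 and 33.2 CPM in GFP high libraries, and those at 72 h 24.7, 25.7 and 31.1 CPM in GFP low libraries, against 28.9, 28.5 and 31.7 CPM in GFP high libraries. Neither later difference was called, at 0.17 and -0.12 (adjusted p = 0.116 and 0.265), although both passed in the block fit (adjusted p = 4.35e-04 and 0.0212). The 24 h value was -0.57 with the length trend removed and -0.68 with the length and GC trends removed. GPX4, which reduces lipid peroxides in membranes, had 90.0, 90.2 and 100.5 CPM in GFP low libraries, against 108, 117 and 123 CPM in GFP high libraries at 24 h. It had 126, 129 and 136 CPM in GFP low libraries, against 108, 111 and 118 CPM in GFP high libraries at 48 h, and 118, 119.8 and 127 CPM in GFP low libraries, against 115, 115 and 125 CPM in GFP high libraries at 72 h. GPX4 was lower in GFP low cells at 24 h (-0.31, adjusted p = 2.50e-05) and higher at 48 h (0.21, adjusted p = 0.00399), and the groups overlapped at 72 h. With the length trend removed its 24 h value was -0.054 (adjusted p = 0.392), and with the GC trend removed too it was -0.17 (adjusted p = 1.60e-07).

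ABCC1, a pump that exports glutathione conjugates, went the other way at 24 h, with 182, 189 and 189 CPM in GFP low libraries, against 143, 139.5 and 147 CPM in GFP high libraries. It rose by 30.4% in GFP low cells (log2 fold change 0.38 ± 0.029, adjusted p = 1.81e-10), by 0.22 on the log2 scale with the length trend removed and by 0.15 with the length and GC trends removed. The 48 h libraries held 137, 139 and 147 CPM in GFP low libraries, against 149, 149.9 and 152 CPM in GFP high libraries, and those of 72 h 132, 129 and 133 CPM in GFP low libraries, against 131, 129 and 137 CPM in GFP high libraries. The 48 h value of -0.093 (adjusted p = 0.0233) was lost under 4 of 11 other settings and did not hold without the GFP high library of set 1, the GFP high library of set 2, the GFP low library of the unnumbered set or the GFP low library of set 1, with adjusted p of 0.00583 to 0.116 over the 6 libraries left out in turn. The glutaredoxin GLRX averaged 24.2 ± 0.708 CPM in GFP low and 37.6 ± 1.11 CPM in GFP high libraries at 24 h (SD, n = 3 each), a fall of 35.6% (log2 fold change -0.63), and was not called later. Glutathione reductase GSR, which regenerates glutathione with NADPH, was a little lower each time, at -0.082, -0.079 and -0.13, but its 24 h value turned to 0.047 with library totals alone and was 0.0017 with the length trend removed. That 24 h call did not hold without the GFP low library of set 2, with adjusted p of 0.00864 to 0.0532 over the 6 libraries left out in turn. The 48 h call was lost under 7 of 11 other settings and did not hold without the GFP high library of the unnumbered set, the GFP high library of set 1 or the GFP low library of set 2, with adjusted p of 0.0204 to 0.169 over the 6 libraries left out in turn.

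At 24 h 8 of the 9 genes of the thioredoxin system fell in GFP low cells (28.5% of all tested genes) and none was higher (29.3%). The median log2 fold change of the 9 was -0.64 as fitted, -0.37 with the length trend removed and -0.31 with the length and GC trends removed. PRDX3, the peroxiredoxin of mitochondria (ENSG00000165672.7, chr10:119167720-119178812, minus strand), had 113, 114 and 114 CPM in GFP low libraries, against 213, 213 and 208 CPM in GFP high libraries at 24 h. It had 214, 220.2 and 212 CPM in GFP low libraries, against 214, 212 and 205 CPM in GFP high libraries at 48 h, and 224, 223 and 219.8 CPM in GFP low libraries, against 221, 229.8 and 218 CPM in GFP high libraries at 72 h. PRDX3 fell by 46.1% at 24 h (log2 fold change -0.89 ± 0.025, adjusted p = 1.09e-17), and the fractions overlapped at 48 and 72 h. The fall stood at -0.79 with the length trend removed and at -0.68 with the length and GC trends removed. With both trends removed its 72 h value turned to 0.075 (adjusted p = 0.00423).

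PRDX1, the most abundant peroxiredoxin of the set per exon length, had 564, 555 and 548 CPM in GFP low libraries, against 869.7, 865 and 857 CPM in GFP high libraries at 24 h. It had 792, 761 and 757 CPM in GFP low libraries, against 815, 805 and 802 CPM in GFP high libraries at 48 h, and 779, 768 and 758 CPM in GFP low libraries, against 816, 794 and 787 CPM in GFP high libraries at 72 h. Its fall of 35.7% at 24 h (log2 fold change -0.64 ± 0.020, adjusted p = 5.99e-17) stood beside -0.068 at 48 h and -0.057 at 72 h. The 24 h value was -0.34 with the length trend removed and -0.31 with the length and GC trends removed. The 48 h call was lost under 4 of 11 other settings and did not hold without the GFP high library of the unnumbered set, the GFP low library of set 1 or the GFP low library of set 2, with adjusted p of 0.00304 to 0.0761 over the 6 libraries left out in turn. The 72 h call was lost under 5 of 11 other settings, and it did not hold without the GFP high library of the unnumbered set, the GFP high library of set 1, the GFP low library of set 1 or the GFP low library of set 2, with adjusted p of 0.0339 to 0.196 over the 6 libraries left out in turn. PRDX2 (-0.80), PRDX6 (-0.68) and PRDX5 (-0.39) were also lower at 24 h, and PRDX5 was at 0.0031 with the length trend removed. With the length and GC trends removed PRDX6 was at -0.39 at 24 h. Exons of MMACHC on the opposite strand cover 29.8% of the exon bases of PRDX1. PRDX6, which works with glutathione, was also lower at 72 h (-0.10, adjusted p = 0.00230), a call lost with the length and GC trends removed (adjusted p = 0.234). PRDX2 was not called at 48 h (-0.052, adjusted p = 0.309) but passed in the block fit (adjusted p = 0.00479). Its 72 h value (-0.11, adjusted p = 0.0270) did not hold without the GFP high library of the unnumbered set, the GFP high library of set 2, the GFP low library of the unnumbered set or the GFP low library of set 1, with adjusted p of 0.0162 to 0.137 over the 6 libraries left out in turn.

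Thioredoxin TXN, the small protein that reduces disulfides, had 172, 173 and 162 CPM in GFP low libraries, against 292, 291 and 278 CPM in GFP high libraries at 24 h, a log2 fold change of -0.76 ± 0.032 (adjusted p = 7.24e-15). It was -0.39 with the length trend removed and -0.28 with the length and GC trends removed. At 48 h the groups overlapped, and at 72 h TXN was slightly higher in GFP low cells, at 0.10 (adjusted p = 0.0223). That last call did not hold without the GFP high library of set 2 or the GFP low library of the unnumbered set, with adjusted p of 0.0228 to 0.110 over the 6 libraries left out in turn, nor with the length trend removed (adjusted p = 0.0811). Its mitochondrial counterpart TXN2 was at -0.40 at 24 h (adjusted p = 3.25e-10), or -0.10 with the length trend removed and -0.14 with the length and GC trends removed, and was not called later.

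TXNRD1, the NADPH-dependent reductase of thioredoxin (ENSG00000198431.16, chr12:104215779-104350307, plus strand), had 522, 514 and 503 CPM in GFP low libraries, against 619.9, 618 and 620.2 CPM in GFP high libraries at 24 h. It had 549, 545 and 534 CPM in GFP low libraries, against 568, 571 and 574 CPM in GFP high libraries at 48 h, and 544, 542 and 535 CPM in GFP low libraries, against 572, 570.4 and 556 CPM in GFP high libraries at 72 h. The groups never overlapped, and the log2 fold changes were -0.27, -0.074 and -0.067 (SE 0.018 each, adjusted p = 1.86e-11, 0.00432 and 0.00871). This long transcript moved further from 0 with the length trend removed, to -0.37 at 24 h. At 48 h the call did not hold with library totals alone or with no filter. SRXN1, which repairs overoxidised peroxiredoxins, had 1.71, 1.77 and 3.1 CPM in GFP low libraries, against 2.30, 2.14 and 2.34 CPM in GFP high libraries at 24 h. It had 1.63, 2.07 and 2.50 CPM in GFP low libraries, against 1.45, 2.07 and 2.58 CPM in GFP high libraries at 48 h, and 1.75, 2.27 and 2.21 CPM in GFP low libraries, against 1.34, 1.57 and 1.99 CPM in GFP high libraries at 72 h. The groups overlapped each time, and its few reads gave an SE of 0.22 at 24 h, the largest of the 30 genes, beside 0.018 for TXNRD1.

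The pentose phosphate pathway supplies NADPH, and its genes TALDO1, PGD and TKT were lower in GFP low cells at every time. TALDO1, transaldolase of the non-oxidative arm (ENSG00000177156.11, chr11:747415-765012, plus strand), had 278, 272 and 279 CPM in GFP low libraries, against 464, 461 and 461 CPM in GFP high libraries at 24 h. It had 333, 316 and 332 CPM in GFP low libraries, against 381, 373 and 384 CPM in GFP high libraries at 48 h, and 330.0, 329 and 335 CPM in GFP low libraries, against 416, 403 and 414 CPM in GFP high libraries at 72 h. TALDO1 fell by 40.2%, 13.8% and 19.4% (log2 fold changes -0.74, -0.21 and -0.31, SE up to 0.021), with adjusted p of 1.89e-17, 1.31e-07 and 3.40e-10. These 3 calls held under every alternative run, and the difference was the largest of the called falls at 48 and 72 h among the 30 genes.

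PGD, the dehydrogenase that makes NADPH in the oxidative arm, had 618, 601 and 625 CPM in GFP low libraries, against 836, 828 and 846 CPM in GFP high libraries at 24 h. It had 734, 721 and 745 CPM in GFP low libraries, against 786, 776 and 793 CPM in GFP high libraries at 48 h, and 773, 763 and 781 CPM in GFP low libraries, against 864, 863 and 882 CPM in GFP high libraries at 72 h. Its groups never overlapped, with log2 fold changes of -0.44, -0.098 and -0.17 (adjusted p = 7.99e-15, 4.42e-04 and 3.80e-07), and these calls too held under every alternative run. Transketolase TKT had 416, 398 and 426 CPM in GFP low libraries, against 511, 514 and 543 CPM in GFP high libraries at 24 h. It had 460.4, 450.2 and 486 CPM in GFP low libraries, against 489, 490.3 and 521 CPM in GFP high libraries at 48 h, and 509, 506 and 538 CPM in GFP low libraries, against 561, 559.8 and 595 CPM in GFP high libraries at 72 h. TKT had log2 fold changes of -0.34, -0.10 and -0.14 (adjusted p = 3.23e-08, 0.0365 and 0.00378). At 24 h it was -0.51 with the length trend removed and -0.61 with both trends removed. Its 48 h call was lost with the length trend removed (adjusted p = 0.0633) and did not hold without the GFP high library of set 2, the GFP low library of the unnumbered set or the GFP low library of set 1, with adjusted p of 0.0120 to 0.194 over the 6 libraries left out in turn.

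NQO1, the quinone reductase that is widely used as a readout of NRF2 (ENSG00000181019.13, chr16:69706996-69726668, minus strand), was lower in GFP low cells at all 3 times. It had 121, 118 and 123 CPM in GFP low libraries, against 213, 209 and 216 CPM in GFP high libraries at 24 h. The 48 h libraries had 141, 139 and 142 CPM in GFP low libraries, against 151, 147 and 146 CPM in GFP high libraries. At 72 h the values were 109, 109.6 and 114 CPM in GFP low libraries, against 133, 126 and 131 CPM in GFP high libraries. The fall was 43.1% at 24 h and 14.4% at 72 h (log2 fold changes -0.81 ± 0.027 and -0.22 ± 0.027, adjusted p = 1.34e-16 and 2.19e-06). At 48 h it was -0.075 (adjusted p = 0.0445), a call that was lost under 6 of 11 other settings and did not hold without any 1 of the 6 libraries, with adjusted p of 0.0534 to 0.172 over the 6 libraries left out in turn. NQO1 stood at -0.67 at 24 h with the length trend removed.

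Ferritin, the iron store, changed side between 24 h and the later times. FTH1 (ENSG00000167996.16, chr11:61959718-61967634, minus strand) had 2433, 2400.2 and 2414 CPM in GFP low libraries, against 2861, 2837 and 2874 CPM in GFP high libraries at 24 h. It had 2623, 2608 and 2593 CPM in GFP low libraries, against 2246, 2260.4 and 2261 CPM in GFP high libraries at 48 h, and 1936, 1927 and 1966 CPM in GFP low libraries, against 1781, 1769 and 1800.0 CPM in GFP high libraries at 72 h. FTH1 was lower at 24 h (-0.24, adjusted p = 4.82e-13) and higher at 48 and 72 h (0.21 and 0.12, SE 0.013 each, adjusted p = 7.52e-11 and 2.54e-07). FTL had 563, 552 and 587 CPM in GFP low libraries, against 725, 738 and 778 CPM in GFP high libraries at 24 h. It had 697, 713 and 748 CPM in GFP low libraries, against 615, 611 and 649 CPM in GFP high libraries at 48 h, and 607, 595 and 638 CPM in GFP low libraries, against 538, 552 and 575 CPM in GFP high libraries at 72 h. FTL followed the same order, with log2 fold changes of -0.40, 0.20 and 0.14 (adjusted p = 1.53e-09, 1.29e-04 and 0.00314). The 24 h falls of both did not hold with the length trend removed, where FTH1 was at 0.015 and FTL at -0.0039 (adjusted p = 0.475 and 0.954). The later rises of FTH1 held with it removed, at 0.19 and 0.14, and that of FTL at 48 h did (0.19, adjusted p = 0.00604) but not at 72 h (0.11, adjusted p = 0.124; 0.086 with the GC trend removed too). FTH1 shares 63.2% of its exon bases with BEST1 on the opposite strand, which held 4766 counts beside 1594810 of FTH1.

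**Figure D3:**
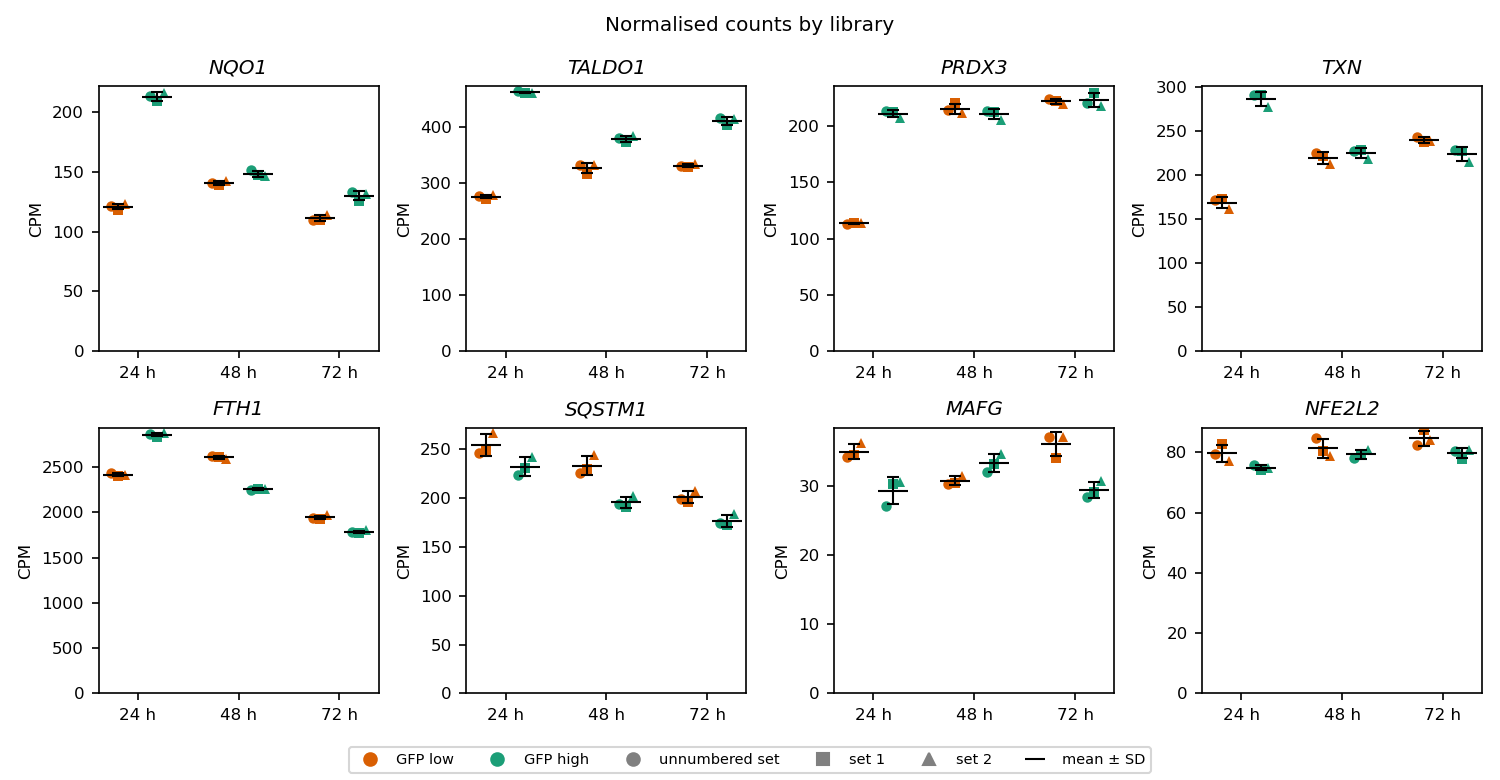
CPM of 8 of the genes in every library, with GFP low (orange) left of GFP high (green) at 24, 48 and 72 h, the mean and SD of 3 libraries in black, and the library set given by the shape of the point. NQO1 and TALDO1 are lower in GFP low libraries each time, PRDX3 and TXN are lower by most at 24 h, FTH1 changes side after 24 h, and NFE2L2 stays between 74.1 and 87.4 CPM.

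The genes of the enzymes that remove superoxide and hydrogen peroxide all fell at 24 h, beside 28.5% of all tested genes. Cytosolic SOD1 averaged 163 ± 3.92 CPM in GFP low and 261 ± 5.19 CPM in GFP high libraries at 24 h (SD, n = 3 each). Mitochondrial SOD2 averaged 352 ± 5.63 CPM in GFP low and 402 ± 5.73 CPM in GFP high libraries. Peroxisomal catalase CAT averaged 43.1 ± 0.479 CPM in GFP low and 51.7 ± 2.10 CPM in GFP high libraries. The log2 fold changes were -0.68, -0.19 and -0.26, with adjusted p of 1.06e-15, 1.63e-07 and 1.11e-06. Removing the length trend put SOD1 at -0.42, CAT at -0.17 and SOD2, the longest of the 30 transcripts, at -0.47; with the GC trend removed too, SOD1 was at -0.40 and CAT at -0.11. None was called at 72 h. At 48 h SOD2 was lower, at -0.066 (adjusted p = 0.0344), which was lost under 6 of 11 other settings and did not hold without the GFP high library of the unnumbered set, the GFP high library of set 1, the GFP low library of set 1 or the GFP low library of set 2, with adjusted p of 0.0153 to 0.134 over the 6 libraries left out in turn. With the library set as a block, SOD1 and CAT at 48 h (adjusted p = 0.0109 and 0.0151) and SOD2 and CAT at 72 h (adjusted p = 4.07e-04 and 0.0487) also passed. These ran both ways. SOD1 at 48 h and CAT at 72 h were lower in GFP low cells (-0.057 and -0.078 as fitted without the block). CAT at 48 h and SOD2 at 72 h were higher in GFP low cells (0.092 and 0.057).

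The difference between the fractions changed with time in 22 of the 30 genes (F test over the 3 times, adjusted p under 0.05), against 47.8% of all tested genes. The smallest p values belonged to PRDX3, FTH1 and PRDX1. From 24 to 48 h the log2 fold change of GFP low over GFP high moved up by 0.93 in PRDX3, by 0.45 in FTH1 and by 0.57 in PRDX1 (adjusted p = 5.70e-15, 1.91e-14 and 4.42e-13). Of the peroxiredoxin and thioredoxin genes 8 of 9 changed, of the NADPH genes 3 of 3 and of the regulators 1 of 5, MAFG. The 8 genes whose difference was not shown to change with time were NFE2L2, KEAP1, BACH1, SQSTM1, GCLC, GCLM, GSR and SRXN1. With the library set as a block 25 of 30 changed, GCLC, GCLM and SQSTM1 being added. With the length trend removed the change was no longer called in FTL, TXN2 and PRDX5 (adjusted p = 0.0688, 0.0885 and 0.865), and it was called in SQSTM1, GCLM and BACH1.

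Each fraction was also set against its own 24 h libraries; these comparisons use the same 24 h libraries as the GFP comparison at 24 h and are not independent of it. In GFP low cells 25 of 30 genes differed at 48 h (50.8% of all tested genes), 20 higher (25.7%) and 5 lower (25.1%), with a median of 0.22. At 72 h 26 differed (57.1%), 19 higher (29.6%) and 7 lower (27.5%), with a median of 0.20. PRDX3 rose by 0.92 at 48 h and 0.97 at 72 h on the log2 scale, PRDX2 by 0.69 and 0.75, SOD1 by 0.54 and 0.59, and GLRX by 0.48 and 0.57. GPX1 rose by 0.99 and 0.59, with 0.22 at 72 h missing the threshold when the length trend was removed (adjusted p = 0.0506). ABCC1 fell, to log2 fold changes of -0.40 and -0.51. With the length trend removed FTL at 72 h turned to -0.31 and FTH1 at 48 h to -0.11. Scaling by library totals alone moved the median of all tested genes at 72 h from 0.0084 to -0.099, and TXNRD1 and NFE2L2 then turned to -0.032 and -0.019.

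In GFP high cells 16 of 30 genes differed from 24 h at 48 h (20.6% of all tested genes), 15 lower (9.97%) and 1 higher (10.6%), MAFG. At 72 h 18 differed (28.9%), 13 lower (15%) and 5 higher (13.9%); of the 5, only the call of PRDX5 (0.20) held under every alternative run. The largest called falls at 72 h were in NQO1, at -0.52 at 48 h and -0.71 at 72 h on the log2 scale, and in ferritin, with FTH1 at -0.34 and -0.68 and FTL at -0.26 and -0.43. TXN was at -0.35 and -0.36, SQSTM1 at -0.25 and -0.39, and TALDO1 at -0.28 and -0.17. The adjusted p of these 12 values ran from 1.50e-19 to 5.78e-05, and all 12 calls held under every alternative run. NQO1 in GFP high cells went to 133, 126 and 131 CPM at 72 h, against 213, 209 and 216 CPM at 24 h. In GFP low cells it had 109, 109.6 and 114 CPM at 72 h, against 121, 118 and 123 CPM at 24 h. MAFG at 48 h (0.18, adjusted p = 0.0109) did not hold without the GFP high library of the unnumbered set at 24 h or the GFP high library of set 2 at 48 h, with adjusted p of 0.00998 to 0.0726 over the 6 libraries left out in turn. With the library set as a block 25 of the 30 genes differed at 48 h, 22 lower and 3 higher. That fit called 5394 of all 16474 tested genes, against 3388 without the block. By library totals alone 11 of the 30 were lower and 3 higher at 48 h, and 9 lower and 6 higher at 72 h; by upper quartile scaling the counts were 12 and 3 at 48 h. At 72 h, 2 were higher with no filter on low counts and 3 with only the groups compared. Without the GFP high library of set 2 at 72 h, 2 were higher at 72 h, and without any 1 of the 3 GFP high libraries at 24 h, 3 were.

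Gene length moved with the 24 h difference. Across the 30 genes the 24 h log2 fold change had a Spearman rho of 0.60 with summed exon length, and across 10117 protein-coding genes at 1 CPM or more it was 0.47; these genes share the same 18 libraries. At 48 and 72 h rho was -0.35 and -0.10 over the 30 genes and -0.034 and 0.051 over the protein-coding genes. The median exon length was 3356 bases for the 30 genes and 3998 bases for all tested genes. With a smooth trend on length removed from each library, 22 of the 30 genes were called at 24 h, 19 lower and 3 higher, with a median of -0.21; with the GC trend removed too, the counts were again 19 and 3, with a median of -0.16. Over all 16474 tested genes these fits called 9458 and 9944 at 24 h, against 9531 with no trend removed. Removing the length trend ended the calls of NFE2L2, SQSTM1, GSR, GPX4, PRDX5, FTL and FTH1. It added KEAP1 as higher (0.13) and BACH1 and GCLC as lower (-0.12 and -0.086). With the GC trend removed too, KEAP1, BACH1 and GCLC were not called, at 0.023, -0.044 and -0.032 (adjusted p = 0.357, 0.107 and 0.268). NFE2L2 and GPX4 were then called again, at 0.10 and -0.17. The share of mitochondrial reads was 3.48% to 3.64% in GFP low and 4.27% to 4.62% in GFP high libraries at 24 h, and its part in the result was not tested.

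**Figure D4:**
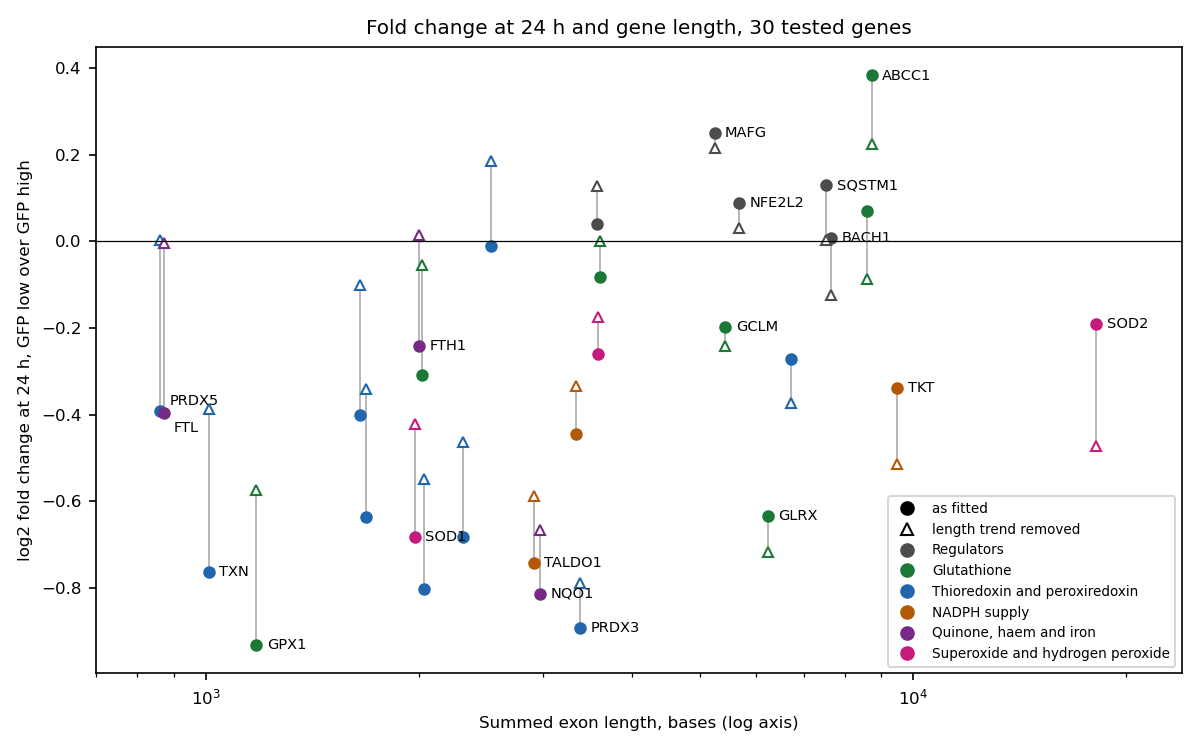
Log2 fold change of GFP low over GFP high at 24 h against summed exon length (log axis) for the 30 tested genes, as fitted (filled circles) and with the length trend removed (open triangles), joined by a line. Short genes such as TXN, FTL and PRDX5 move up towards 0 and long ones such as SOD2 and TKT move down, while NQO1, TALDO1 and PRDX3 stay at -0.59 or below.

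Beyond the 33 genes, 116 further genes of the same pathways were listed and 87 of them were tested. At 24 h 21 were higher (29.3% of all tested genes) and 47 lower (28.5%) in GFP low cells, with a median log2 fold change of -0.16. At 48 h 19 were higher (10.6%) and 11 lower (13.2%), and at 72 h 12 were higher (12.9%) and 21 lower (13.5%). Among further regulators NFE2L1, a relative of NRF2, rose at 24 h (0.40, adjusted p = 4.24e-10) and fell at 72 h (-0.13, adjusted p = 0.00362). RBX1, a subunit of the ligase that KEAP1 serves, fell at 24 h (-0.92, adjusted p = 1.42e-14). The cystine carrier SLC7A11, which feeds glutathione synthesis, rose at 24 h (0.41, and 0.23 with the length trend removed) and was lower at 48 and 72 h (-0.13 and -0.13). GSTO1, a glutathione transferase, fell at 24 h (-1.48, adjusted p = 4.36e-14). PRDX4, the peroxiredoxin of the endoplasmic reticulum, fell at 24 h by 0.91 and the redox sensor PARK7 by 0.72 on the log2 scale; with the length and GC trends removed they were at -0.60 and -0.48. H6PD, which makes NADPH inside the endoplasmic reticulum, rose at 24 h (0.95, adjusted p = 1.15e-11), and IDH1 was lower at all 3 times (-0.37, -0.12 and -0.20). Later calls among the further NADPH genes ran both ways, with IDH2 higher (0.27) and NADK2 lower (-0.28) at 48 h.

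CYBB, the catalytic chain of the NADPH oxidase, which makes superoxide, was lower in GFP low cells at all 3 times (-0.64, -0.60 and -0.69), as was the proton channel HVCN1 (-0.61, -0.25 and -0.24). With the length trend removed these 24 h values were -0.62 and -0.53. Libraries are the unit of all these tests, and the labels name no separate cultures behind the 3 of each group, so the p values measure the spread between libraries, which may be technical.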

How the data were processed

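RNA was measured in 18 libraries of total RNA from Raji cells, prepared with a ribosomal RNA depletion kit per the labels. The values are raw counts of reads per gene as deposited; the submitters' processing notes name STAR, Subread featureCounts, FastQC, R 4.2.1 and hg38, and how strand and multiple mapping were handled is not stated in the labels. The table has 60710 lines, of which 3 hold 1 broken entry that was left out. D1, D2 and D3 in its column names were read as 24, 48 and 72 h. Columns without a number, or ending in 1 or 2, form 3 library sets.

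Counts were tested with edgeR 4.0.16 in R 4.3.3: genes kept by filterByExpr, TMM scaling, 1 mean per group, 12 residual degrees of freedom, a two-sided quasi-likelihood F test, and Benjamini-Hochberg adjustment over 16474 genes at 0.05. The common biological coefficient of variation was 3.49%. SE was taken as the absolute log2 fold change divided by the root of F, and CPM values are scaled by TMM. Totals of 27257876 to 55419458 counts per library set the precision, and the 3 libraries of each group differed by more than sampling noise. Trends on exon length and GC content were removed as offsets per library, and the fit was checked on simulated data.

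Within a set, libraries deviated together from their group means (45 pairs, r of 0.262 to 0.561, median 0.503, against a median of -0.188 over 90 other pairs), so a fit with the library set as a block is given where it changes a call. Other alternatives were relative log expression, upper quartile and library total scaling, no filter, DESeq2 1.42.0, the compared groups alone, and each library left out. The genes and lists were chosen with earlier results of these data known. Library values are given for the 5 regulators, NQO1, HMOX1, GCLC, GCLM, TXNRD1 and SRXN1, the 3 called genes with the largest change in each direction at each time, and the 3 with the smallest p for a change with time; up to 3 called genes per list, direction and time are named from the other pathway genes. No protein sequences were used here. Some genes of the lists are not reported here by name.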

Additional observations from a re-analysis of the deposited data

Results flagged for a closer look

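In 22 genes the difference between GFP low and GFP high cells itself differed between the times by the F test over 24, 48 and 72 h. Given as the change of the log2 fold change of GFP low over GFP high, the largest was in GPX1, at 1.10 for 48 minus 24 h. Over the same times it was 0.93 in PRDX3, 0.75 in PRDX2, 0.74 in NQO1, 0.61 in GLRX, 0.61 in PRDX6 and 0.60 in FTL. It was 0.53 in TALDO1, 0.52 in GPX4, 0.46 in TXN2, 0.45 in FTH1, 0.45 in PRDX5, 0.35 in CAT, 0.35 in PGD and 0.23 in TKT. ABCC1 moved down, at -0.48. For 72 minus 24 h the change was 0.86 in TXN, 0.68 in SOD1, 0.58 in PRDX1, 0.25 in SOD2 and 0.21 in TXNRD1. In MAFG the widest gap was 72 minus 48 h, at 0.41. The adjusted p of these F tests ran from 2.22e-15 in PRDX3 to 9.90e-04 in TKT.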

How the results depend on the processing

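At 24 h the test called 26 of 30 genes, and 22 to 27 under the alternatives; at 48 h it called 15, and 10 to 22; at 72 h 14, and 11 to 20. Scaling by library totals alone gave 7 higher genes at 24 h, 7 higher and 3 lower at 48 h, and 3 higher at 48 against 24 h in GFP high cells. Upper quartile scaling gave 5 lower at 48 h and 3 higher at 48 against 24 h in GFP high cells. No filter gave 4 lower at 48 h and 2 higher at 72 against 24 h in GFP high cells; only the groups compared gave 5 and 3. With the length and GC trends removed, 8 were higher at 48 h and 2 at 48 against 24 h in GFP high cells. The 24 h median was -0.26 by upper quartile, -0.19 by library totals, -0.21 without the length trend and -0.16 without both trends; the 48 h median was -0.026 by upper quartile, -0.0079 by library totals and -0.028 with no filter.

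The library set as a block (the pairing of libraries) gave 7 higher genes at 48 h, 8 at 72 h, 25 called at 48 against 24 h in GFP high cells and 3 higher there; in the GFP comparisons of the 30 genes it changed no call other than those given beside the results, and 30 of 328 single-gene results passed with it that did not without. The block with the length trend removed gave 7 higher at 48 h, 8 at 72 h and 2 at 48 against 24 h in GFP high cells, with medians of -0.21 at 24 h and -0.051 at 48 h. The block with both trends removed, added after the data were seen, gave 8, 8 and 2, with medians of -0.16 and -0.030.

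Without 1 library the counts ran from 25 to 27 at 24 h (3 to 5 higher, 21 to 22 lower), 9 to 13 at 48 h (4 higher, 5 to 9 lower), 12 to 16 at 72 h (4 to 6 higher, 7 to 10 lower) and 22 to 24 for the change with time. In GFP high cells they were 12 to 16 at 48 h (0 to 1 higher, 12 to 15 lower) and 13 to 15 at 72 h (2 to 4 higher, 10 to 12 lower), and in GFP low cells 24 to 25 (20 higher, 4 to 5 lower) and 25 to 27 (18 to 19 higher, 7 to 8 lower). Medians ran from -0.37 to -0.29 at 24 h, -0.055 to -0.038 at 48 h and -0.036 to -0.014 at 72 h. Of 2328 such single-gene results, 2177 kept their direction and side of the threshold. Depth limits SRXN1, and HMOX1, GSTP1 and ME1 could not be tested.

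Directions turned as follows. By library totals alone, GSR at 24 h was 0.047, and in GFP low cells at 72 against 24 h NFE2L2 was -0.019 and TXNRD1 -0.032. Without the length trend, and with the block besides, 24 h values were -0.12 and -0.12 in BACH1, -0.086 and -0.088 in GCLC, 0.0017 and 0.00072 in GSR and 0.015 and 0.014 in FTH1, while PRDX5 was 0.0031 without the block. In GFP low cells against 24 h, BACH1 was then 0.11 and 0.10 at 48 h and 0.017 and 0.017 at 72 h, GCLC 0.010 and 0.010 at 72 h, FTL -0.31 and -0.31 at 72 h and FTH1 -0.11 and -0.11 at 48 h, and SOD2 in GFP high cells at 48 h -0.059 and -0.059. Without both trends, and with the block besides, SQSTM1 was -0.097 and -0.096 at 24 h and 0.093 and 0.092 at 48 against 24 h in GFP low cells. GSR was 0.013 and 0.012, FTH1 0.0014 and 0.0013 and ABCC5 -0.0053 and -0.0026 at 24 h, and PRDX3 0.075 and 0.076 at 72 h. In GFP low cells TXN was -0.012 and -0.011 at 48 h, FTL -0.29 and -0.29 at 72 h and FTH1 -0.11 and -0.11 at 48 h, and SOD2 in GFP high cells at 48 h -0.060 and -0.060. The cause of these turns was not tested.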

Other observations

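Further genes of these pathways, taken from lists chosen by function, also differed at 24 h in GFP low cells. GLO1, which clears methylglyoxal with glutathione, stood at -0.61 on the log2 scale, TXNDC17, a thioredoxin-like protein, at -0.89 and BLVRB, biliverdin reductase, at -0.65 (adjusted p = 1.04e-14, 1.74e-14 and 1.12e-05). MTHFD2, a mitochondrial folate enzyme that makes NADPH or NADH, was at -0.42 (adjusted p = 1.65e-13). At 72 h TXNDC17 was higher in GFP low cells (0.16, adjusted p = 0.00255), and BLVRB was lower (-0.66, adjusted p = 2.81e-05). At 48 and 72 h the glutathione transferase GSTK1 was higher in GFP low cells, at 0.25 and 0.22, and so was glutathione synthetase GSS, at 0.32 and 0.27 (adjusted p of GSTK1 1.34e-05 and 5.85e-05, of GSS 7.96e-05 and 4.69e-04). With the length trend removed the 24 h values were -0.39 in GLO1 (-0.30 with the GC trend removed too), -0.80 in TXNDC17, -0.34 in BLVRB and -0.63 in MTHFD2.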
